A study of Rattus norvegicus with 12 samples.

Results

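The common effect of the testis toxicants EGME and CBZ on the mature microRNAs of rat serum vesicles was estimated by joining the count table of each toxicant and comparing all treated libraries with all vehicle libraries in 1 model. The comparison used 12 of the 12 libraries of the series, 6 treated (EGME libraries 1 to 3 and CBZ libraries 1 to 3) and 6 vehicle (water libraries 1 to 3 and oil libraries 1 to 3). Each treated library was set against the vehicle of its own table, since the table entered the model as a block. All rats were male Sprague-Dawley rats aged 9 weeks. EGME, a glycol ether solvent, was given once by mouth at 2000 mg/kg in 10 mL/kg of water, and the compound the labels call CBZ once by mouth at 400 mg/kg in 5 mL/kg of corn oil. The water and oil groups received the vehicle alone, and blood was drawn 24 h after dosing. Serum vesicles were pelleted by ultracentrifugation, a step that also brings down other RNA-carrying particles. The titles number the libraries of a group without stating whether a number stands for 1 rat, and p-values here therefore cover only the variation among libraries, some of which may be technical. Compound, vehicle, dose volume and table change together between the 2 tables and cannot be told apart.

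MicroRNAs are short RNAs that guide Argonaute proteins to messenger RNAs and lower the protein made from them. A microRNA finds its targets mainly through its seed, the stretch from base 2 to base 8 counted from the 5′ end. In blood, microRNAs travel in vesicles, on protein and in lipoprotein particles, and they come from blood cells, the vessel wall, the liver and other organs. Serum carries in addition what platelets and blood cells release while blood clots. In RNA pooled from vesicles, fewer vesicles from 1 cell type and less of a microRNA in each vesicle cannot be told apart.

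The tables name 436 mature miRNAs between them, 318 of them in both. Of these 318, 136 had enough counts to be tested and 182 did not. The 318 joined miRNAs held at least 98.18% of the miRNA counts of every library. Total counts ranged from 196460 to 1235814 per library, of which 51953 to 244141 were counts of mature miRNAs, so that an undetected miRNA could still have up to 3 counts in a library, which is 12.5 to 57.8 CPM (counts brought to the same total of miRNA counts). Oil library 2 was the shallowest. The level of miR-148a-3p, the miRNA with the most counts, was 152689 CPM in oil library 1, 561176 in oil library 2 and 480630 in oil library 3. With 221486, 194804 and 210949 CPM, the CBZ libraries were nearer to oil library 1 than the other oil libraries were. A chi-square over the miRNA counts, in which miRNAs with many counts weigh most, set oil library 1 apart within its group. Per degree of freedom it was 105.8 against oil library 2 and 90.88 against oil library 3. Between oil libraries 2 and 3 it was 20.99. A principal component analysis of log CPM, with the mean of each table removed, set oil library 2 apart instead. PC1 and PC2 were -5.12 and -6.05 for oil library 2. They were -1.25 and 4.21 for oil library 1 and -3.11 and 1.27 for oil library 3. Levels below are CPM of the tested miRNAs, scaled by the trimmed mean of M values (TMM), and differences are log2 values, treated minus vehicle. A miRNA is called where the quasi-likelihood test of edgeR gave an adjusted p (Benjamini-Hochberg over the 136) under 0.05.

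In the treated libraries 10 miRNAs rose and 6 fell. This is 11.8% of the 136 tested, 7.35% higher and 4.41% lower, and 39 had an unadjusted p under 0.05. The sizes ran from 0.55 to 1.39 on the log2 scale, while the median difference over all 136 was -0.05. The sequences of the called miRNAs are shown first, because several share a seed or a primary transcript. They were matched by name to RefSeq (build GRCr8), which held 121 of the tested and 15 of the called miRNAs, and miR-320-3p is given by name only. Capitals mark the seed. The miRNAs that rose were:
miR-423-5p: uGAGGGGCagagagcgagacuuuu
miR-128-3p: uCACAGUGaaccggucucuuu
miR-10a-5p: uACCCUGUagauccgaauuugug
miR-99b-5p: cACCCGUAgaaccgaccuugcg
miR-125a-5p: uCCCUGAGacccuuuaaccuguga
miR-126a-3p: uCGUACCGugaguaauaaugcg
let-7a-5p: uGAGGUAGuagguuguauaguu
miR-122-5p: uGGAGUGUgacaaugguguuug
miR-22-3p: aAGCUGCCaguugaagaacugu

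Those that fell are shown with miR-17-5p and miR-20a-5p, which carry the seed of miR-93-5p and miR-106b-5p, and with miR-101b-3p, which differs from miR-101a-3p at 1 base. None of these 3 relatives was called.
miR-93-5p: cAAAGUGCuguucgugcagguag
miR-106b-5p: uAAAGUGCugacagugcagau
miR-17-5p: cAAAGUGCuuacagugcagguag
miR-20a-5p: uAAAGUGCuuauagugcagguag
miR-140-3p: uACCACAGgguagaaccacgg
miR-451-5p: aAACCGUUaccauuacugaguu
miR-101a-3p: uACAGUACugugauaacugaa
miR-101b-3p: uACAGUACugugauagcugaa
miR-185-5p: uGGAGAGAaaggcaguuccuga

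The miRNA with the smallest p was miR-423-5p, which is often used as a reference for serum measurements. Its level was 1177, 676 and 1149 CPM in the water libraries and 3246, 1519 and 2606 CPM in the EGME libraries. In the oil libraries it was 722, 630 and 1156 CPM, and in the CBZ libraries 2330, 2322 and 2538 CPM. Every treated library lay above every vehicle library of either table. The log2 difference was a rise of 1.39 (SE 0.209, edgeR adjusted p = 0.000175), or 2.61-fold, with a 95% interval of 0.95 to 1.82. The other arm of the same hairpin, miR-423-3p, differed by 0.39 (SE 0.191, edgeR adjusted p = 0.174).

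Next came miR-128-3p, a miRNA known for its abundance in neurons. It stood at 12422, 5529 and 10355 CPM after water and at 31140, 13632 and 32418 CPM after EGME. With the other vehicle it stood at 18506, 33472 and 24629 CPM, and after CBZ at 50509, 54014 and 61306 CPM. The groups did not overlap within either table, but oil library 2 was above all 3 EGME libraries, so the separation holds only within a table. The rise was 1.28 (SE 0.230, edgeR adjusted p = 0.00101), or 2.43-fold. Both miR-423-5p and miR-128-3p were also called in each table on its own contrast, the only 2 of the 136 to be so.

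Of the 6 members of the miR-10, miR-99 and miR-100 list, an old family whose miR-10 genes lie among the Hox genes, 5 were tested, all 5 had a positive difference and 2 were called, with a list median of 0.76 against -0.05 for all tested miRNAs. Over all 136 tested miRNAs 63 had a positive and 73 a negative difference, and 7.35% were called higher and 4.41% lower. The counts for each list below are to be read beside these shares. Under each of the 4 other scalings the 5 differences of this list stayed positive. The level of miR-10a-5p was 1202, 1750 and 2879 CPM with water and 5141, 4657 and 4297 CPM with EGME. It was 1702, 2499 and 1464 CPM with oil and 2757, 3957 and 3101 CPM with CBZ. Treated and vehicle libraries did not overlap within a table, although water library 3 was above CBZ library 1. The rise was 1.05 (SE 0.213, edgeR adjusted p = 0.00229).

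The second called member, miR-99b-5p, was read at 363, 325 and 417 CPM in water and 559, 681 and 570 CPM in EGME libraries. Oil libraries had 299.6, 270.1 and 238 CPM and CBZ libraries 419, 417 and 592 CPM. The groups did not overlap within either table. The rise was 0.76 (SE 0.169, edgeR adjusted p = 0.00517), and the counts behind it ran from 12 to 122 over the 12 libraries. The others of the list differed by 0.80 (miR-10b-5p, edgeR adjusted p = 0.144), 0.33 (miR-100-5p, adjusted p = 0.417) and 0.14 (miR-99a-5p, adjusted p = 0.620).

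The hairpin of miR-99b-5p lies within 10 kb of those of let-7e-5p and miR-125a-5p on chromosome 1 of GRCr8, and all 3 had a positive difference. Of these, miR-125a-5p, a relative of lin-4 of Caenorhabditis elegans, was scarce: 4, 5 and 7 counts in water, 14, 8 and 20 in EGME, 7, 4 and 3 in oil and 21, 18 and 14 in CBZ libraries. As levels these were 19.6, 32.5 and 47.9 CPM in water, 93.1, 50.0 and 93.4 CPM in EGME, 95.3, 90.0 and 26.5 CPM in oil, and 176, 203 and 134 CPM in CBZ libraries. Oil library 3 with its 3 counts was at the floor, and several other values were near it. The rise was 1.35 (SE 0.342, edgeR adjusted p = 0.0141), and its 95% interval of 0.64 to 2.06 was among the widest of the called miRNAs. The difference of let-7e-5p was 0.55 (SE 0.237, edgeR adjusted p = 0.122). The seed of miR-125a-5p, CCCUGAG, is also that of miR-125b-5p and miR-351-5p, whose differences ran from -0.13 to 0.61 and were not called.

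On the list of the let-7 family, which restrains growth genes, 6 of 10 tested members had a positive and 4 a negative difference, and 1 was called. With scaling over all RNA classes the split was 8 and 2 and 6 were called higher. The 10 include let-7d-3p (0.47, edgeR adjusted p = 0.141), the other arm of a let-7 hairpin, which lacks the let-7 seed. Of the 9 tested miRNAs with that seed, GAGGUAG, 5 had a positive and 4 a negative difference, and 1 was called. That member, let-7a-5p, was at 7177, 5321 and 6641 CPM in water and 10701, 7894 and 11388 CPM in EGME libraries. Its level was 12610, 13956 and 15852 CPM in oil and 20038, 19560 and 18129 CPM in CBZ libraries. Within each table the treated libraries were all above the vehicle libraries, and all the libraries of the oil and CBZ table were above those of the other. The rise was 0.55 (SE 0.158, edgeR adjusted p = 0.0288). Near-identical relatives did not share one direction: let-7c-5p (0.32, edgeR adjusted p = 0.245) and let-7f-5p (-0.32, adjusted p = 0.193) each differ from let-7a-5p at 1 base, so reads with a sequencing error could pass between them. The water and EGME table also lists an antisense entry with about as many counts as let-7a-5p, which the other table does not name; with that entry's counts added, let-7a-5p differed by 0.51 (edgeR adjusted p = 0.0423).

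For the vascular and fibroblast list 5 of 10 members were tested, 4 with a positive difference, and 1 was called; with scaling over all RNA classes all 5 were positive and 3 were called higher. The member called without that scaling was miR-126a-3p, which endothelial cells and platelets carry. It was measured at 2296, 3077 and 3283 CPM with water, 5693, 3732 and 3900 CPM with EGME, 3282, 2544 and 2576 CPM with oil, and 3729, 4803 and 4733 CPM with CBZ. The groups did not overlap in either table, although EGME library 1 was far above the other EGME libraries. The rise was 0.64 (SE 0.172, edgeR adjusted p = 0.0186), and the other arm, miR-126a-5p, differed by 0.59 (edgeR adjusted p = 0.192). The platelet list had 8 of 8 members tested, 4 positive and 4 negative with a median of 0.06, and 2 of them rose, miR-126a-3p and miR-22-3p; with scaling over all RNA classes the split was 6 and 2 and 4 were called higher. The summed level of the platelet list was 37132 to 46097 CPM in water, 43489 to 49615 in EGME, 48997 to 56273 in oil and 53038 to 60493 in CBZ libraries, so treated and vehicle libraries overlapped in both tables. Its part in these results was not tested.

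Found widely across tissues, miR-22-3p was at 535, 429 and 766 CPM with water and 991, 1081 and 944 CPM with EGME, which did not overlap. With oil it was at 871, 1463 and 953 CPM and with CBZ at 1307, 1285 and 1489 CPM, where oil library 2 reached into the treated range. The rise was 0.57 (SE 0.180, edgeR adjusted p = 0.0392).

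A further miRNA that rose was miR-320-3p, whose hairpin is made without the nuclease Drosha. Its level was 2453, 1542 and 3057 CPM in water and 4656, 2563 and 5970 CPM in EGME libraries, which overlapped. Oil libraries had 4085, 1576 and 4464 CPM and CBZ libraries 5573, 7824 and 5620 CPM, which did not. The rise was 0.90 (SE 0.245, edgeR adjusted p = 0.0190). The other tested member of the list of hairpins made without Drosha, miR-484, differed by -0.11 (SE 0.286, edgeR adjusted p = 0.792).

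The liver list had 3 of 6 members tested. Its defining member is miR-122-5p, the dominant miRNA of hepatocytes. It was read at 5863, 1821 and 2195 CPM in water, 6106, 8138 and 3396 CPM in EGME, 1961, 3534 and 1332 CPM in oil and 8866, 7103 and 3034 CPM in CBZ libraries. Treated and vehicle libraries overlapped in both tables, through water library 1 against EGME library 3 and oil library 2 against CBZ library 3. The rise was 1.16 (SE 0.345, edgeR adjusted p = 0.0369), or 2.23-fold, and all 6 treated libraries were above the mean of their vehicle. The other tested liver members were not called: miR-192-5p differed by -0.05 (edgeR adjusted p = 0.923) and miR-194-5p by -0.67 (adjusted p = 0.126).

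**Figure D1:**
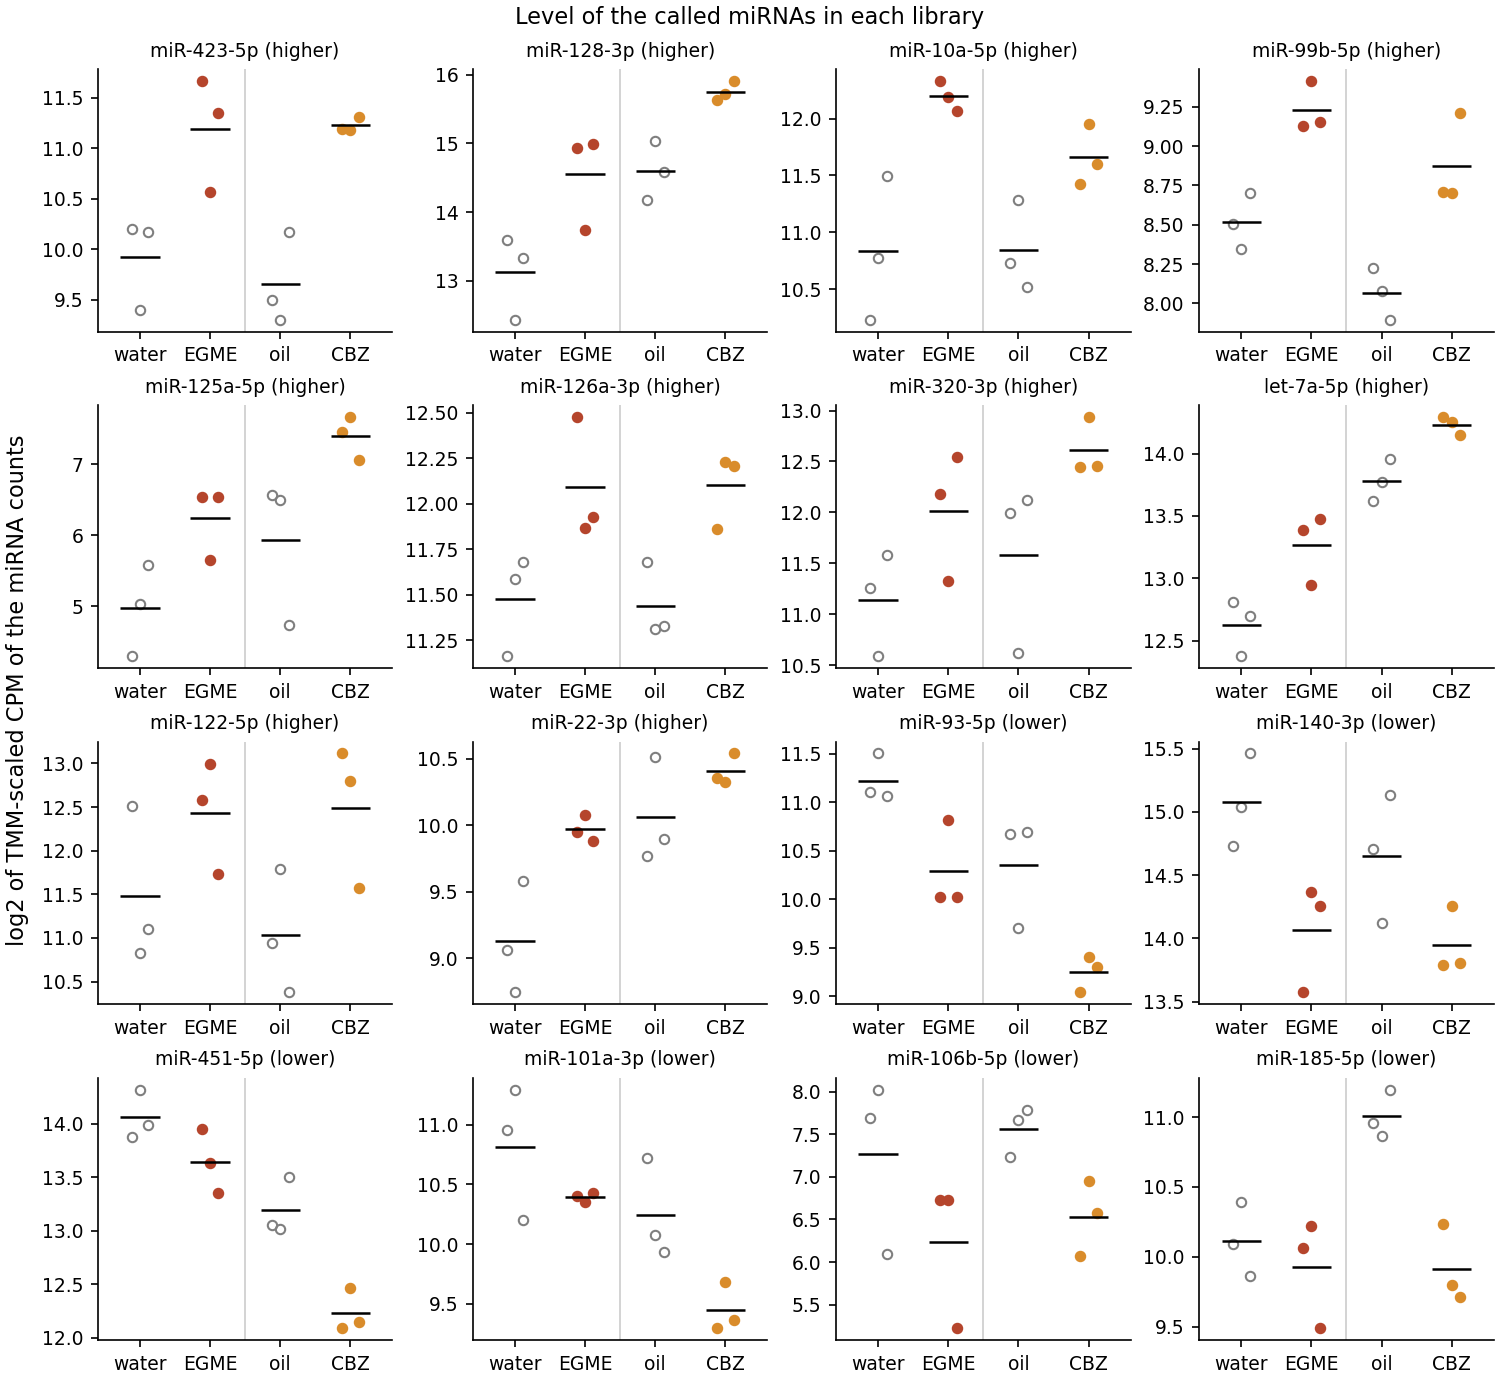
The plot of levels by library shows each of the 16 called miRNAs in a panel of its own: log2 of TMM-scaled CPM on the vertical axis (each panel has its own range), and the 4 groups on the horizontal axis with 1 point per library (open circles for vehicles, filled for toxicants), and a bar at the mean of the log2 values. Within the panels for miR-423-5p, miR-99b-5p and miR-93-5p each toxicant group stands clear of the vehicle beside it, while in those for miR-122-5p and miR-106b-5p the groups overlap in the water and EGME columns.

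Among the miRNAs that fell, miR-93-5p had the smallest p. It is encoded with miR-25 and miR-106b in an intron of Mcm7, a gene of DNA replication. Levels were 2208, 2901 and 2134 CPM in water and 1044, 1806 and 1042 CPM in EGME libraries. They were 1634, 833 and 1658 CPM in oil and 528, 676 and 630 CPM in CBZ libraries. No treated library reached the vehicle libraries of its table. The fall was -1.03 (SE 0.199, edgeR adjusted p = 0.00157), a level 51.2% lower.

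From the same intron, miR-106b-5p was scarce, with 8 to 42 counts per library. It was at 206, 260 and 68.4 CPM with water and 106, 106 and 37.4 CPM with EGME. With oil it was at 150, 203 and 221 CPM and with CBZ at 67.0, 124 and 95.4 CPM. Water library 3 overlapped the EGME libraries, and oil and CBZ did not overlap. The fall was -1.10 (SE 0.332, edgeR adjusted p = 0.0353). The 3′ arm of the same hairpin, miR-106b-3p, differed by -0.15 (edgeR adjusted p = 0.549), and miR-25-3p by 0.01 (SE 0.179, edgeR adjusted p = 0.977), so products of the same intron had different values.

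The seed AAAGUGC is shared by miR-93-5p, miR-106b-5p, miR-17-5p and miR-20a-5p, and all 4 had a negative difference, from -1.10 to -0.25. The 2 that were not called were miR-17-5p (-0.25, edgeR adjusted p = 0.417) and miR-20a-5p (-0.35, adjusted p = 0.141). Over the miR-17-92 and related clusters, which drive proliferation in many cells, 9 of 12 members were tested, with a median of -0.32. Of these, 7 had a negative difference and 2 were called lower, against 73 of all 136 negative and 4.41% called lower. With scaling over all RNA classes 5 of the 9 were negative, 1 was called lower and 1 higher, and the median was -0.015. The exceptions to the negative direction were miR-25-3p and miR-92a-3p. For miR-92a-3p the difference was 0.35 (SE 0.151, edgeR adjusted p = 0.122), with treated libraries above vehicle libraries in both tables. In the oil and CBZ table the margin was narrow, with CBZ library 1 at 11104 CPM and oil library 1 at 11084 CPM.

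The next fall was that of miR-140-3p, the arm of a hairpin best known from cartilage. Its level was 27155, 33642 and 45113 CPM with water and 12218, 21152 and 19567 CPM with EGME. With oil it was 26676, 17806 and 35876 CPM and with CBZ 14171, 19617 and 14332 CPM. The EGME libraries were all below the water libraries, while CBZ library 2 was above oil library 2. The fall was -0.87 (SE 0.200, edgeR adjusted p = 0.00597). The 5′ arm, miR-140-5p, differed by 0.17 (SE 0.229, edgeR adjusted p = 0.615). Of 22 hairpins with both arms tested, paired by name, 17 had arms of the same sign, 5 had a called arm and in 0 were both arms called. All 4 members of the cartilage list were tested, 3 with a negative pooled difference and 1 called. The list median was -1.15 for EGME and 0.29 for CBZ, and with CBZ miR-140-5p (0.57), miR-455-3p (0.43) and miR-455-5p (0.16) had a positive difference.

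The red blood cell list holds miRNAs abundant in erythrocytes. All 11 members were tested: 9 had a negative difference, 3 fell (miR-451-5p, miR-93-5p and miR-185-5p) and the median was -0.37, where 73 of all 136 tested miRNAs had a negative difference and 4.41% were called lower. With scaling over all RNA classes 7 of the 11 were negative, 1 was called lower (miR-93-5p) and 1 higher (miR-92a-3p), and the median was -0.06. The erythroid miR-451-5p, which matures by Argonaute cleavage in place of Dicer, was at 15081, 20457 and 16257 CPM in water and 15796, 12726 and 10491 CPM in EGME libraries. It was at 8511, 8284 and 11609 CPM in oil and 4358, 5648 and 4542 CPM in CBZ libraries. The groups overlapped in the first table through EGME library 1 and did not overlap in the second. The fall was -0.69 (SE 0.178, edgeR adjusted p = 0.0151). Its cluster partners miR-144-3p and miR-144-5p differed by -0.66 (edgeR adjusted p = 0.122) and -0.47 (adjusted p = 0.0673).

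The summed level of the red blood cell list did not follow the count of its members in both tables. It was 100735 to 134751 CPM in water and 128951 to 173601 CPM in EGME libraries, against 103974 to 123834 CPM in oil and 75851 to 92132 CPM in CBZ libraries: the EGME libraries reached higher and overlapped the water libraries, and the CBZ libraries were all below the oil libraries. Most of that sum is miR-486. Without miR-486 it was 45645 to 56656 CPM in water, 49341 to 56142 in EGME, 35836 to 44079 in oil and 29214 to 37576 in CBZ libraries, overlapping in both tables. The part of red cell RNA in the pooled result was not tested.

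The level of miR-185-5p was 1089, 1346 and 930.2 CPM with water and 1071, 1194 and 719 CPM with EGME, which overlapped. With oil it was 1988, 1868 and 2346 CPM and with CBZ 1207, 891 and 839.7 CPM, which did not. The pooled fall was -0.62 (SE 0.199, edgeR adjusted p = 0.0436), the weakest call of the 16 by p. It was also the only call with fewer than 6 treated libraries below their vehicle mean (5 of 6). Its difference was -0.18 for EGME and -1.08 for CBZ, and these 2 differed with an unadjusted p of 0.0158 (edgeR adjusted p = 0.283). No other called miRNA had an unadjusted p under 0.05 for that difference.

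The last called miRNA was miR-101a-3p, whose human counterpart represses the histone methyltransferase EZH2. It was at 1982, 2511 and 1176 CPM with water and 1357, 1306 and 1378 CPM with EGME. With oil it was at 1689, 1080 and 979 CPM and with CBZ at 629, 823 and 658 CPM. Water library 3 overlapped the EGME libraries, and oil and CBZ did not overlap. The fall was -0.65 (SE 0.194, edgeR adjusted p = 0.0348). The relative miR-101b-3p, with the same seed, was just outside the threshold (-0.46, SE 0.156, edgeR adjusted p = 0.0565), and its treated libraries were all below the vehicle libraries in both tables.

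Just outside the threshold on the higher side was let-7b-5p (0.58, SE 0.196, edgeR adjusted p = 0.0565). It stood at 5220, 4566 and 5779 CPM in water and 11712, 4657 and 10772 CPM in EGME libraries, where EGME library 2 stayed in the water range. With oil it stood at 4167, 4592 and 4225 CPM and with CBZ at 6294, 5254 and 5000 CPM, which did not overlap. On the lower side, after miR-101b-3p, were miR-142-3p, a miRNA of blood cells (-0.50, SE 0.175, edgeR adjusted p = 0.0600), and miR-374-5p (-0.79, SE 0.275, edgeR adjusted p = 0.0600), which was added after its values were seen because the adjusted p values are tied. Just inside were miR-185-5p and miR-22-3p, described above.

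The effects of the toxicants were then set side by side, each contrast from 1 fit of the 4 groups. EGME against water gave 6 called miRNAs (4.41% of 136) and CBZ against oil 6 (4.41%). Of the 16 called in the pooled comparison, 4 were called in the EGME contrast of that fit, 5 in the CBZ contrast and 9 in neither. With each table fitted alone the counts were larger, 16 for EGME and 13 for CBZ, and 8 of each were among the 16 pooled calls. The 9 were miR-99b-5p, miR-125a-5p, miR-126a-3p, miR-320-3p, let-7a-5p, miR-122-5p, miR-22-3p, miR-101a-3p and miR-106b-5p. All 16 had the same sign in both tables, as had 96 of the 136 tested (70.59%). Since a pooled call favours miRNAs with the same sign on both sides, the count over the 16 is a description. The separate counts depended on single libraries: with EGME library 2 left out EGME gave 10 calls, with oil 1 or oil 2 left out 14, with oil 3 or any CBZ library left out 3, and with water 2, EGME 1 or EGME 3 left out 0 by edgeR (with 23, 25 and 26 at an unadjusted p under 0.05). CBZ gave 14 without oil 1, 10 without oil 2, 3 without CBZ 3 and 1 without oil 3 or CBZ 2.

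Across the 136 miRNAs the EGME and CBZ differences had a Pearson r of 0.44 and a Spearman rho of 0.41. The contrasts share no library, but they share the scaling and the miRNAs are not independent of each other. Treated and vehicle libraries did not overlap in 28 miRNAs for EGME (20.6%) and 41 for CBZ (30.1%). In 10 miRNAs (7.35%) they did not overlap in either table and went the same way, 8 higher (5.88%) and 2 lower (1.47%). The 8 were miR-423-5p, miR-128-3p, miR-10a-5p, miR-99b-5p, miR-125a-5p, miR-126a-3p, let-7a-5p and miR-92a-3p, and the 2 were miR-93-5p and miR-101b-3p. So 8 of the 16 called miRNAs were separated in both tables.

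**Figure D2:**
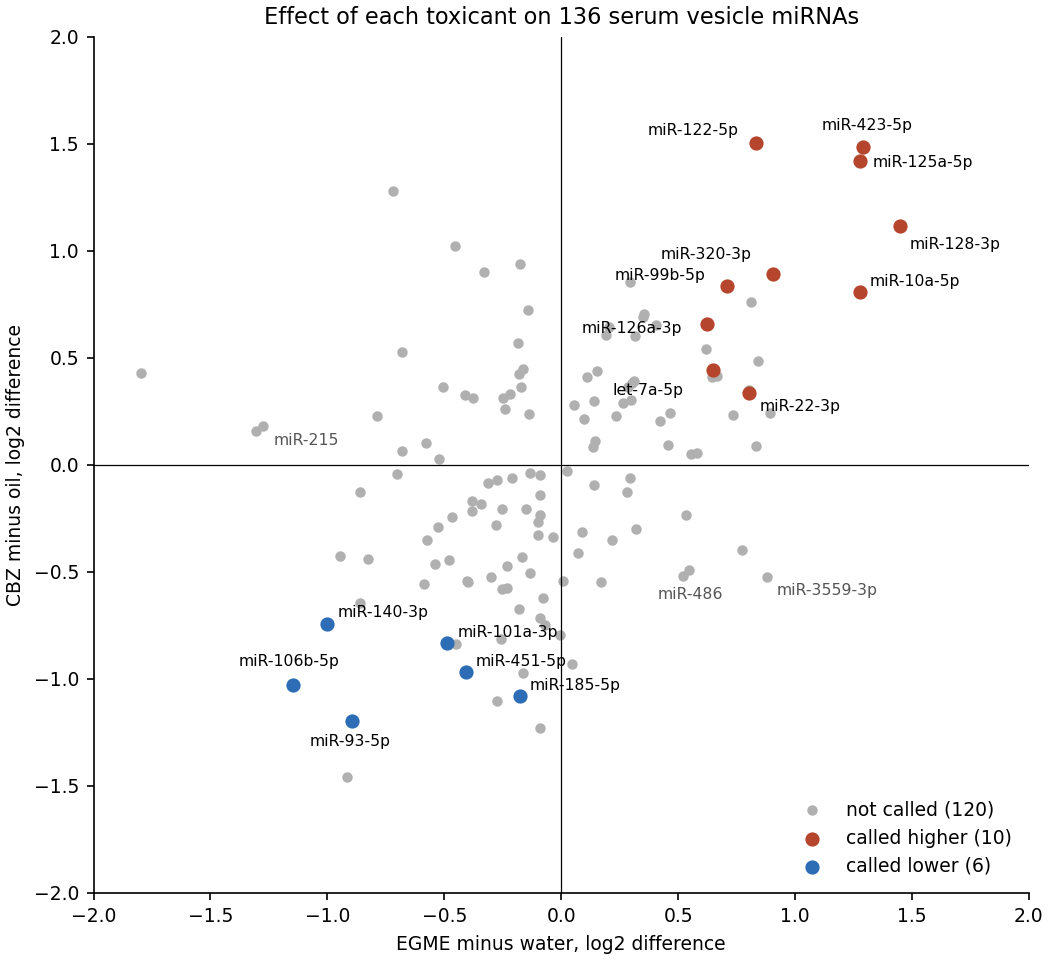
The plot of 1 toxicant against the other has the log2 difference EGME minus water on the horizontal and CBZ minus oil on the vertical axis, 1 point for each of the 136 tested miRNAs, with the 10 called higher in red and the 6 called lower in blue. The called miRNAs lie at the upper right (higher with both) and lower left (lower with both), with miR-423-5p at 1.29 and 1.48 and miR-93-5p at -0.90 and -1.20, and miR-486 and miR-3559-3p lie at the lower right.

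Where the toxicants differed from each other, 0 of 136 miRNAs were called by the edgeR test of the difference; the lowest adjusted p was 0.173, and 14 had an unadjusted p under 0.05. The DESeq2 Wald test called 1. The smallest p belonged to miR-3559-3p, which was at 255, 254 and 294 CPM in water and 599, 413 and 467 CPM in EGME libraries, but at 299.6, 450.2 and 344 CPM in oil and 259.8, 214 and 267 CPM in CBZ libraries. It was higher by 0.88 with EGME (edgeR adjusted p = 0.0419) and differed by -0.52 with CBZ (adjusted p = 0.275). For the p53-responsive miR-215, which shares its seed with miR-192-5p, the difference was -1.28 with EGME (edgeR adjusted p = 0.0419) and 0.18 with CBZ (adjusted p = 0.787). For miR-223-3p of myeloid cells and platelets it was -0.09 with EGME (edgeR adjusted p = 0.821) and -1.23 with CBZ (adjusted p = 0.0134). These 3 were the miRNAs called in 1 table and not in the pooled comparison. Over the 6 p53-responsive miRNAs 3 were tested, all with a negative pooled difference and none called. The list median was -0.945 for EGME and 0.179 for CBZ. With CBZ miR-192-5p (0.33) and miR-215 (0.18) had a positive and miR-194-5p (-0.42) a negative difference. Without scaling, and with scaling over all RNA classes, 1 of the 3 pooled differences was positive.

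**Figure D3:**
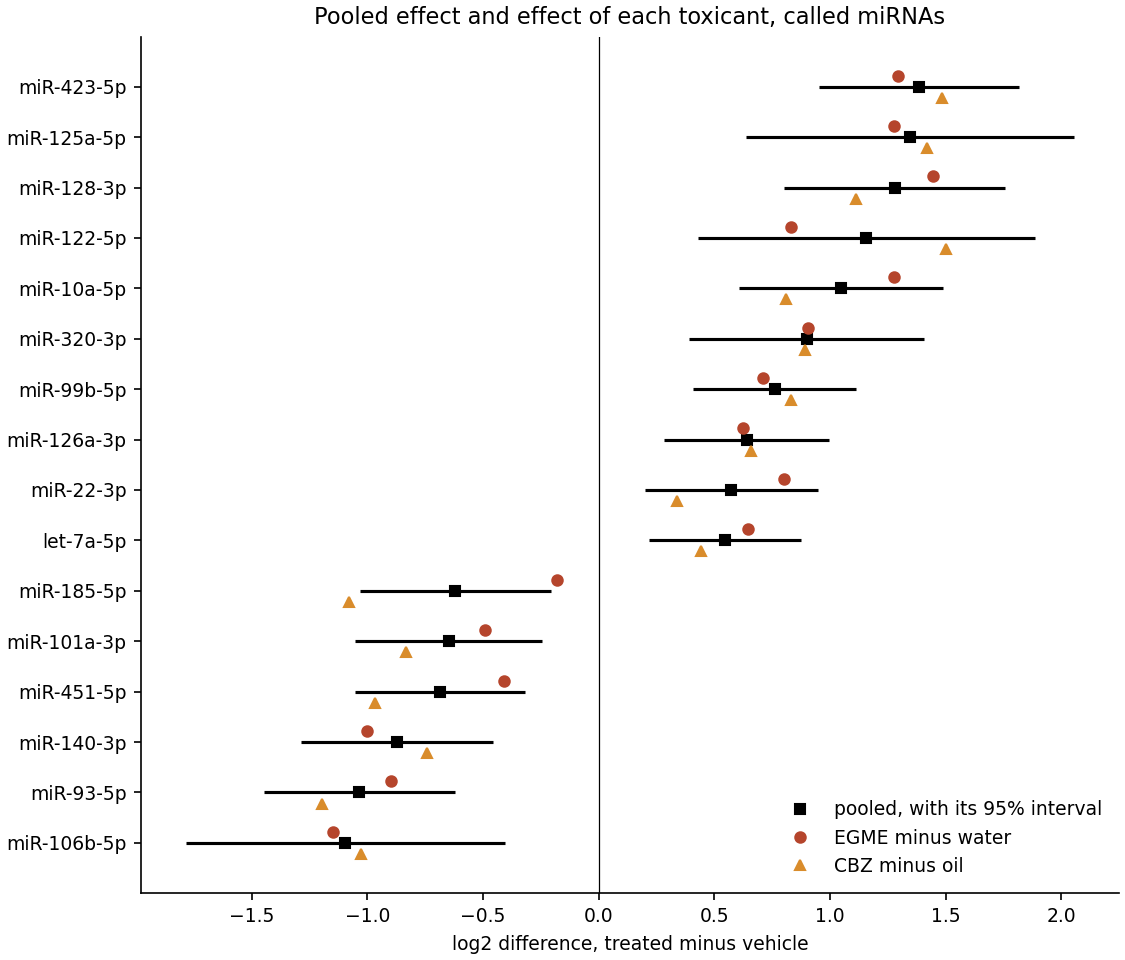
The plot of pooled and separate effects gives, for each of the 16 called miRNAs, the pooled log2 difference as a black square with its 95% interval, and the difference for EGME (red circles) and for CBZ (orange triangles). Most of the single differences lie inside the pooled interval, and for miR-185-5p, at -0.18 for EGME and -1.08 for CBZ, both lie outside it.

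The miRNAs with the most counts were not called. The pooled difference was -0.44 for miR-148a-3p (SE 0.261, edgeR adjusted p = 0.245), -0.21 for let-7i-5p (SE 0.167, adjusted p = 0.373), 0.33 for miR-26a-5p (SE 0.190, adjusted p = 0.245) and -0.32 for let-7f-5p (SE 0.162, adjusted p = 0.193). For miR-486 it was 0.00 with a 95% interval of -0.42 to 0.42. That value is the mean of opposite differences, 0.52 for EGME and -0.52 for CBZ. The miR-148 and miR-152 list, of which 4 of 6 members were tested, had 4 negative differences and 0 calls, with a median of -0.42 and 1 positive with scaling over all RNA classes.

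Of 9 leukocyte miRNAs 8 were tested, 6 with a negative difference and 0 called, with a median of -0.30; with scaling over all RNA classes 4 were negative, 2 were called higher (miR-146a-5p and miR-146b-5p) and the median was -0.009. Their summed level was 11612 to 13015 CPM in water, 9440 to 12613 in EGME, 10219 to 11320 in oil and 8781 to 10668 in CBZ libraries. The 2 tested muscle miRNAs, miR-1-3p (0.07, edgeR adjusted p = 0.941) and miR-378a-3p (-0.02, adjusted p = 0.963), were not called. Of 12 epithelial and endocrine miRNAs 4 were tested, and all 4 had a positive difference and 0 were called, with a median of 0.43; with scaling over all RNA classes 1 was called higher. The brain list had 2 of 11 members tested, miR-128-3p and miR-125b-5p (0.61, edgeR adjusted p = 0.245); most of its summed level in every library was miR-128-3p.

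Of the common reference miRNAs, which are used to scale serum measurements because they are held to be steady, all 7 were tested, and 1 rose and 1 fell: miR-423-5p by 1.39 and miR-93-5p by -1.03. The other 5 were not called, with differences from -0.40 for miR-103-3p (edgeR adjusted p = 0.120) to 0.30 for miR-191a-5p (adjusted p = 0.193, 95% interval -0.02 to 0.62). The miR-30 family had 7 of 8 members tested, 6 negative and 0 called, and with scaling over all RNA classes 6 of the 7 were positive. The miR-23, miR-24 and miR-27 clusters had 7 of 8 tested, 3 positive, 4 negative and 0 called; without scaling 5 were positive, and with scaling over all RNA classes 6 were positive and 1 was called higher. The 3 tested members of the inflammation-linked list, among them miR-21-5p (-0.18, edgeR adjusted p = 0.456) and miR-146b-5p (0.26, adjusted p = 0.257), were not called; with scaling over all RNA classes all 3 were positive and 2 were called higher.

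The testis and germ cell list holds 32 miRNAs known from spermatocytes, spermatids and the testis, such as miR-34c-5p and the X-linked miR-743a to miR-883 group. The tables name 17 of them, and 0 passed the filter. The highest count of any of them in any library was 9. Summed over the list there were 15 to 24 counts per water library, 20 to 29 per EGME library, 2 to 5 per oil library and 4 to 12 per CBZ library. Since no member was tested, no difference between treated and vehicle libraries is given for the list.

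**Figure D4:**
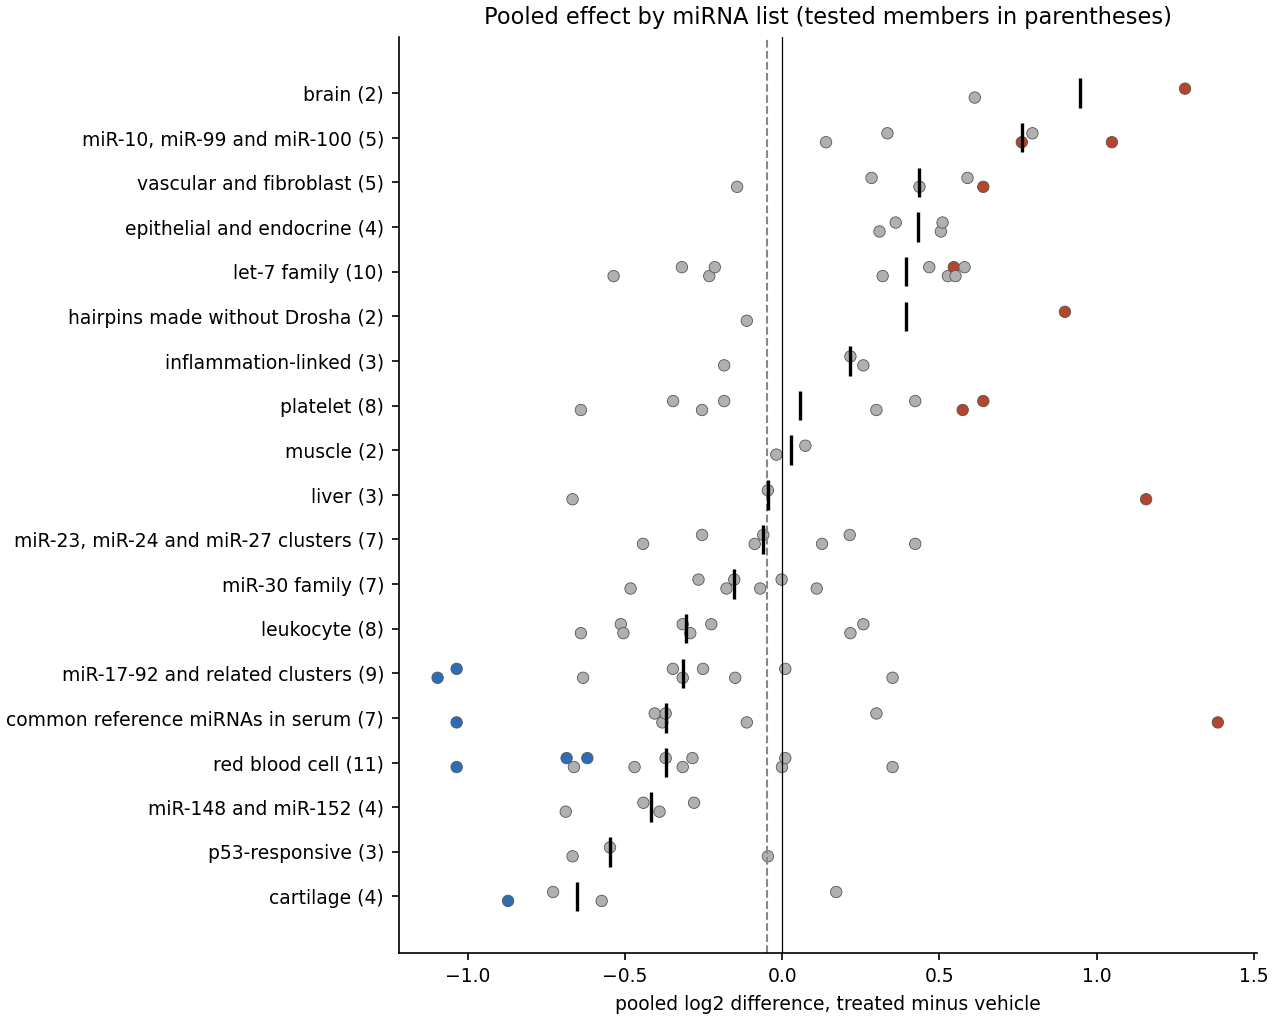
The plot of lists has the pooled log2 difference on the horizontal axis and 1 row for each list with at least 2 tested members (their number in parentheses), with 1 point per miRNA, red where it was called higher and blue where it was called lower. The black tick is the list median, the solid line marks 0 and the dashed line the median of all 136 tested miRNAs, -0.05; the miR-10, miR-99 and miR-100 row lies wholly to the right of both, and 9 of the 11 red blood cell points lie to the left of 0.

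The share of mature miRNA in all counts was 20.4% ± 4.51 in water, 23.3% ± 6.84 in EGME, 21.1% ± 5.93 in oil and 20.3% ± 2.78 in CBZ libraries (SD, n = 3 each). Treated minus vehicle, averaged over the tables, was 1.05 percentage points (exact permutation test within tables, two-sided, p = 0.725, 400 arrangements). That average joins opposite directions, since the mean was higher with EGME than with water and lower with CBZ than with oil. Its p covers the average alone. Treated and vehicle libraries overlapped in both tables, from 17.57% to 25.61% with water, 15.46% to 28.13% with EGME, 14.72% to 26.44% with oil and 17.34% to 22.84% with CBZ.

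The direction of the whole set depends on what the counts are scaled to. Without scaling the pooled comparison called 11 higher and 2 lower, and with scaling over all RNA classes 26 higher and 2 lower, against 10 and 6 with scaling over the miRNAs. The median of all 136 moved from -0.05 to 0.08 and 0.25 in these cases. All 16 called miRNAs kept their sign under every scaling, but 12 of them kept the call without scaling and 12 with scaling over all RNA classes. The values given are therefore differences relative to the other miRNAs of a library, not amounts per volume of serum.

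Leaving out 1 library at a time gave 9 to 20 calls. The count moved by over 1.5 times without water library 2 (9), EGME library 3 (10) and CBZ library 2 (9). In all 12 such fits miR-423-5p, miR-128-3p, miR-10a-5p, miR-99b-5p, miR-125a-5p, miR-93-5p and miR-140-3p were called. Calls of the other 9 were lost as follows, with edgeR adjusted p values in the fits without the library. The call of miR-126a-3p was lost without water 1 or EGME 1 (0.0527 and 0.0713), and that of miR-320-3p without water 2, EGME 3 or CBZ 2 (0.0668 to 0.0817). The fall of miR-451-5p missed the threshold without oil 3 or any CBZ library (0.0566 to 0.106). For let-7a-5p the libraries were water 2 and 3, EGME 1 and 3, oil 1 and CBZ 2 (0.0549 to 0.107), and for miR-22-3p water 1 and 2, any EGME library and oil 1 (0.0606 to 0.132). Those for miR-101a-3p were water 2, EGME 3, oil 1 and 3 and any CBZ library (0.0556 to 0.123), and those for miR-106b-5p water 1 and 2, EGME 3, oil 3 and any CBZ library (0.0566 to 0.123). The calls of miR-122-5p and miR-185-5p rested on most of the libraries: the first was lost without water 2 or 3, EGME 1 or 2, any oil library or CBZ 1 or 2 (0.0549 to 0.132), the second without water 2, EGME 3 or any oil or CBZ library (0.0520 to 0.185).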

How the data were processed

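Small RNA was sequenced from serum vesicles in 12 rat libraries, 3 each for water, EGME, oil and CBZ. The authors deposited whole-number counts of reads per feature in 1 table per toxicant, and tables of normalized signal, which per the files are read counts scaled per library. The submitters' processing notes name edgeR. Which aligner and genome build were used, and how reads matching several features were assigned, is not given in the sources used here, so no coordinates from the files are printed.

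The raw count tables were joined by feature name, and mature miRNAs (names starting rno-) named in both were kept. They were tested with edgeR 4.0.16 (R 4.3.3; robust quasi-likelihood F test, two-sided, TMM over the miRNAs, filterByExpr with a minimum count of 10, table as a block, Benjamini-Hochberg threshold 0.05). Effects within tables and their difference came from 1 fit of the 4 groups. The share of miRNA was tested by exact permutation within tables. Standard errors come from the log2 difference and its F statistic. The script was tested on simulated data. Libraries carry no molecular identifiers, so the floor of 3 counts reflects counting error alone. Replicate libraries of a group differed by a chi-square of at least 10.1 per degree of freedom over the miRNAs, so none was counted as a second deposit.

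The comparison, the miRNA lists and the rules were chosen with earlier results of these data known. Named are the called miRNAs (up to 15 each way), the 5 with most counts, the 5 with the smallest p for the difference of effects, up to 2 abundant members per list and the 3 just outside the threshold; relatives by seed, arm or cluster of a named miRNA were added after their values were seen. The alternatives tried were scaling by DESeq2 1.42.0 size factors, by the upper quartile, over all RNA classes or not at all, no or a stricter filter, the DESeq2 Wald test, limma 3.58.1 on log2 of the deposited normalized signal plus 1 or 0.5, the average of the 4-group contrasts, no table block, the replicate number as a block, miRNAs of either table, each table alone, and leaving out each library. Counts of antisense entries added to their sense miRNA were an alternative chosen after seeing the data.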

Additional observations from a re-analysis of the deposited data

Results flagged for a closer look

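In 2 miRNAs every EGME library lay above every water library while every CBZ library lay below every oil library. The larger gap was that of miR-3559-3p, where the EGME difference exceeded the CBZ difference by 1.40 on the log2 scale (unadjusted p = 0.00127, edgeR adjusted p = 0.173 for the difference over 136 miRNAs). For miR-486, abundant in red blood cells, the gap was 1.04 (unadjusted p = 0.00298, edgeR adjusted p = 0.203). Its levels were 55089, 71363 and 79126 CPM in water, 97689, 117459 and 79610 CPM in EGME, 81158, 68138 and 67208 CPM in oil and 46637, 54555 and 49608 CPM in CBZ libraries. EGME library 3 was only just above water library 3. Neither difference passed the threshold after adjustment.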

How the results depend on the processing

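The 16 called miRNAs had the same sign in every one of the 26 alternatives that used both tables and tested them (25 for miR-125a-5p, which the stricter filter removed), and miR-423-5p, miR-10a-5p and miR-99b-5p were called in each of the 26. Fewest calls were those of miR-22-3p and miR-185-5p (11 of 26 each). Next came let-7a-5p, miR-122-5p, miR-101a-3p and miR-106b-5p (14 each) and miR-451-5p (17). The number called stayed within 1.5 times of 16 with DESeq2 size factors (14), upper quartile scaling (13), no scaling (13), no filter (15), the stricter filter (16), the DESeq2 Wald test (23), the average of the 4-group contrasts (19), miRNAs of either table (14) and antisense entries added (17). It moved to 28 with scaling over all RNA classes, to 10 with limma on log2 of the deposited values plus 1 or 0.5, and to 3 with no table block; the cause was not tested. Leaving out 1 library gave 9 to 20. Same-numbered libraries did not deviate together in every pair (correlations from -0.08 to 0.29), so the numbers are not taken as pairs; the fit with the replicate block called 15 (7 higher, 8 lower), with 14 for EGME, 15 for CBZ and 1 for their difference. For EGME against water (6 called) the count was 16 with the water and EGME table fitted alone, 3 with no scaling, 13 with scaling over all RNA classes, 17 with the DESeq2 Wald test, 1 with either limma setting and 0 to 14 with 1 library left out. For CBZ against oil (6 called) it was 13 with the oil and CBZ table fitted alone, 10 with upper quartile scaling, 11 with no filter, 21 with the DESeq2 Wald test and 1 to 14 with 1 library left out. For the difference of the effects (0 called) it was 2 with upper quartile scaling, 1 with no filter, 1 with the DESeq2 Wald test and 0 to 6 with 1 library left out, the 6 without oil library 1. The miRNA share difference changed sign without EGME library 3 (-0.16 percentage points) and without oil library 1 (-0.54), in a range from -0.54 to 3.01. Among the miRNAs named by the rule, 16, none of them called, changed sign in some alternative (other tested miRNAs are not listed): the water and EGME table alone (miR-148a-3p 0.11, miR-486 0.58, miR-1-3p -0.11, miR-143-3p -0.078, miR-99a-5p -0.10 and miR-140-5p -0.12); scaling over all RNA classes (let-7i-5p 0.099, miR-486 0.29, miR-21-5p 0.14, miR-192-5p 0.24, miR-378a-3p 0.27, miR-30a-5p 0.016 and miR-484 0.19); DESeq2 size factors (miR-486 0.00102); no scaling (miR-486 0.11, miR-192-5p 0.057, miR-378a-3p 0.10 and miR-484 0.0079); at least 10 counts in 6 libraries (miR-486 0.0036); the DESeq2 Wald test (miR-486 0.00103 and miR-1-3p -0.011); limma on values plus 1 (miR-486 0.067, miR-192-5p 0.00077 and miR-378a-3p 0.025); limma on values plus 0.5 (miR-486 0.067, miR-192-5p 0.00079 and miR-378a-3p 0.025); the average of the 4-group contrasts (miR-486 0.056 and miR-378a-3p 0.017); no table block (miR-486 0.084, miR-192-5p 0.042 and miR-378a-3p 0.24); the oil and CBZ table alone (miR-3559-3p -0.47, miR-215 0.26, miR-25-3p -0.25, miR-192-5p 0.38 and miR-378a-3p 0.37); upper quartile scaling (miR-25-3p -0.050); no filter (miR-25-3p -0.026); the replicate block (miR-25-3p -0.053); miRNAs of either table (miR-25-3p -0.0046); antisense entries added (miR-25-3p -0.034 and miR-378a-3p 0.074). With 1 library left out these ran for miR-486 from -0.16 to 0.16, miR-25-3p from -0.13 to 0.16, miR-192-5p from -0.14 to 0.074, miR-378a-3p from -0.081 to 0.087, miR-1-3p from -0.19 to 0.44, miR-203a-3p from -0.041 to 0.54 and miR-484 from -0.29 to 0.042. Depth limits the scarce miRNAs most, miR-125a-5p and miR-106b-5p among the called ones, and 182 of 318 joined miRNAs could not be tested.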

Other observations

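The table of water and EGME libraries names 93 miRNAs that the other table does not, and the table of oil and CBZ libraries 25. Of these 118 entries, 108 have a RefSeq sequence (GRCr8), and 24 of the 108 are, over at least 18 bases, the reverse complement of a miRNA named in both tables. The 3 entries with 100 or more counts in a library were all of this kind, and the oil and CBZ table names none of them. They are shown with their partners to make the pairing visible.
miR-3596a: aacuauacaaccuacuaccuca
let-7a-5p: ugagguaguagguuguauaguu
miR-3557-5p: gccuucugacuccaaguccagu
miR-378a-3p: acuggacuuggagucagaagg
miR-3596d: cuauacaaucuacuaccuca
let-7f-5p: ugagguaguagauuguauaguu

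The complement runs over 22 bases for miR-3596a, 21 for miR-3557-5p and 20 for miR-3596d. In the water libraries miR-3596a had 1443, 819 and 976 counts beside 1463, 818 and 971 for let-7a-5p. In the EGME libraries it had 1618, 1269 and 2433 counts beside 1609, 1263 and 2438. The entry thus held 49.7% to 50.1% of the pair's counts in all 6 libraries, a more even division than the other pairs gave: miR-3557-5p held 82.1% to 88.9% of its pair and miR-3596d 2.23% to 3.76%. The level of miR-378a-3p was 453 to 885 CPM in that table and 2746 to 4165 CPM in the other. How each table assigned such reads was not tested, and whether the tables were made with the same list of miRNAs is not given in the sources used here. With the antisense counts added to their partners the pooled comparison called 17 miRNAs, 9 higher and 8 lower, of which 15 were among the 16.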
